A study of Homo sapiens with 72 samples.

Results

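The data described here are the messenger RNA levels of 10 genes for cap-dependent translation initiation, EIF4E, EIF4E2, EIF4E3, EIF4G1, EIF4G2, EIF4G3, EIF4EBP1, EIF4EBP2, EIF4A1 and EIF4A2, of 60371 genes listed for each library. The genes were taken by name, as the subunits of eIF4F, their close paralogs and 2 of the eIF4E-binding inhibitors, and the rule uses no measured value. They were measured in 72 wells of U2OS, an established human osteosarcoma line, by population RNA-seq after 12 h of treatment in 24-well plates. The solvent DMSO was given to 18 wells, and the other 54 received triptolide, homoharringtonine, pyrazolanthrone, nilotinib, miglitol or MK-2206. Each compound was used at 100 nM, 1000 nM and 10000 nM, and 3 wells were treated at each dose. All replicates are wells of 1 line, and the sample labels name no engineered allele.

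Triptolide blocks transcription initiation through the TFIIH helicase ERCC3, and homoharringtonine blocks translation elongation at the ribosome. The study's list of compounds gives EIF4E as the target of homoharringtonine. Pyrazolanthrone (SP600125) inhibits JNK kinases, nilotinib inhibits BCR-ABL, miglitol inhibits intestinal alpha-glucosidases and MK-2206 inhibits AKT.

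In textbook terms, eIF4F is the complex that binds the 5' cap of an mRNA and brings the small ribosomal subunit to it. eIF4E binds the cap, eIF4G is the scaffold that holds eIF4E, eIF3 and the poly(A)-binding protein, and eIF4A is the RNA helicase that unwinds the leader of the mRNA. The 4E-BPs compete with eIF4G for eIF4E, and mTORC1 releases this block by phosphorylating them. None of these protein levels, phosphorylation states or interactions was measured here.

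Each value below is a level of mRNA in a well. Levels of 1 gene between wells are given as normalised CPM, which is expected counts scaled to CPM after TMM scaling over all 72 libraries, and levels of different genes are compared in TPM, which is per transcript length. Fold changes are log2 differences between the treated wells and the 18 DMSO wells from edgeR's quasi-likelihood test, and "rose", "fell" or "changed" is used for an adjusted p-value (Benjamini-Hochberg over all genes tested) under 0.05. The p-values measure the spread between wells, since nothing in the sample labels says that wells were separate cultures. In bulk RNA, fewer cells and less RNA per cell cannot be told apart.

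The 250 bases before the RefSeq start are shown for 3 genes on which the results below turn: EIF4E, listed as the target of homoharringtonine, and the paralogs EIF4A1 and EIF4A2, whose ratio moved more than the other ratios tested at 1000 nM and 10000 nM homoharringtonine. They are RefSeq sequences of GRCh38.p14, printed 5' to 3' on the strand of the gene. RefSeq and GENCODE place the start of EIF4A2 differently, and its window lies inside the gene as GENCODE gives it. Capitals mark the E-box CACGTG in the first, the GC box GGGCGG in the second and the TATA box TATAAA in the third, searched on both strands.
EIF4E, chr4:98929134-98929383, minus strand: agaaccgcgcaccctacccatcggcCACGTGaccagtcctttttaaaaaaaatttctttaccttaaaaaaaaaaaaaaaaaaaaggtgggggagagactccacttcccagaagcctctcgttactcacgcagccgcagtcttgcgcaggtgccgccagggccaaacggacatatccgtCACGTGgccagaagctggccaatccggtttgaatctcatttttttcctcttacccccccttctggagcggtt
EIF4A1, chr17:7572575-7572824, plus strand: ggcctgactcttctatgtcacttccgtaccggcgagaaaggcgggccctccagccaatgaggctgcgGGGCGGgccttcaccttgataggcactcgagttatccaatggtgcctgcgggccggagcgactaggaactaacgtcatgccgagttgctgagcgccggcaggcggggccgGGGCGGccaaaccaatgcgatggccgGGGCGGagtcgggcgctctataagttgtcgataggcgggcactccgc
EIF4A2, chr3:186783327-186783576, plus strand: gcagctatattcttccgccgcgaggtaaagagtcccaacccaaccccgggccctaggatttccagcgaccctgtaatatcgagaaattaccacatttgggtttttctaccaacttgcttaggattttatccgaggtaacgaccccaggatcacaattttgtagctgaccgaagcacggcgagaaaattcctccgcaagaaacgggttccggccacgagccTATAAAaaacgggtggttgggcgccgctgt

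CACGTG, which MYC and related factors bind, occurs in 6.34% of 35116 such RefSeq windows. Among the 9 members with an entry it occurs for 2, EIF4E and EIF4G1, with 2 matches each. GGGCGG, the GC box, occurs in 42.6% of all windows and for 7 members, with 3 matches in the EIF4A1 window. TATAAA occurs in 10.7% of all windows and for 1 member, EIF4A2. The CRE sequence TGACGTCA occurs in 1.65% of all windows and for none of them. The percentages are per window, whereas a member counts if any of its windows matches. Some members have several windows, EIF4G1 and EIF4E3 among them, so the counts of members cannot be set directly against the percentages. A match is a description of the letters only.

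The genes lie on 8 chromosomes of GRCh38 (GENCODE release 44). EIF4E lies on the minus strand at chr4:98879276-98929133, EIF4EBP1 on the plus strand at chr8:38030534-38060365, EIF4EBP2 on the plus strand at chr10:70404145-70428618, EIF4A1 on the plus strand at chr17:7572824-7579006 and EIF4A2 on the plus strand at chr3:186783205-186789897. EIF4G1 lies on the same chromosome arm as EIF4A2 at chr3:184314495-184335358, and EIF4E3 at chr3:71675414-71754773 on the minus strand. EIF4E2 lies at chr2:232550659-232583644, EIF4G2 at chr11:10797050-10808940 on the minus strand and EIF4G3 at chr1:20806292-21177285 on the minus strand. The EIF4A2 gene hosts SNORD2, SNORA63B, SNORA81, SNORA63, SNORA4 and MIR1248 on its own strand and overlaps RFC4 on the opposite strand, and the EIF4A1 gene overlaps the readthrough gene SENP3-EIF4A1 and hosts SNORA48, SNORD10 and SNORA67. EIF4E3 overlaps a protein-coding gene without a symbol on its own strand and GPR27 on the opposite strand. EIF4G2 hosts SNORD97 and overlaps CTR9 on the opposite strand. EIF4E, EIF4E2, EIF4G1 and EIF4G3 overlap only noncoding genes or pseudogenes. Reads of the overlapping part of these genes are uncertain. The library kit keeps the strand, but whether it was used in counting was not given in the sources used here.

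Libraries held between 0.071 mil and 68.3 mil expected counts, with a median of 38.4 mil. The 3 libraries under 10 mil stood apart. Triptolide 100 nM replicate 2 held 70767 counts, with 1 to 137 counts for each of the 10 genes, DMSO replicate 10 held 0.46 mil and triptolide 1000 nM replicate 1 held 9.63 mil. The share of counts from the 13 mitochondrially encoded mRNAs was 0.14% to 0.37% in DMSO and 1.01% to 1.15% with 10000 nM triptolide. In the DMSO wells the mesenchymal genes COL1A1, SPARC and VIM were high, with medians of 452, 2137 and 1868 TPM, and RUNX2 had a median of 3.81 TPM. COL1A2, SP7 and IBSP, which osteoblasts express, had medians of 0.07, 0 and 0 TPM, so the cells did not show a full osteoblast profile. The 7 markers of epithelial, blood, endothelial, glial and liver cells had medians of 0 to 2.38 TPM, the highest for EPCAM.

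In DMSO wells the 10 mRNAs spanned more than 2 orders of magnitude per length. EIF4A1 was the most abundant at 1093 TPM ± 85.9 (SD, n = 18), followed by EIF4G2 at 753 ± 110.2 and EIF4G1 at 479 ± 50.4. EIF4EBP1 stood at 255 TPM ± 38.5. EIF4E2 at 145 ± 23.3, EIF4E at 130.5 ± 42.1 and EIF4A2 at 116 ± 43.4 had overlapping ranges. EIF4EBP2 at 16.2 TPM ± 3.84, EIF4G3 at 9.27 ± 1.20 and EIF4E3 at 5.16 ± 1.21 were the lowest. Within pairs of paralogs, EIF4A1 was 90.4% ± 3.5 of EIF4A1 plus EIF4A2, EIF4EBP1 93.8% ± 2.3 of EIF4EBP1 plus EIF4EBP2 and EIF4G1 98.1% ± 0.31 of EIF4G1 plus EIF4G3, a share that leaves out the more abundant EIF4G2. EIF4E was 45.7% ± 9.9 of EIF4E, EIF4E2 and EIF4E3 together.

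**Figure D1:**
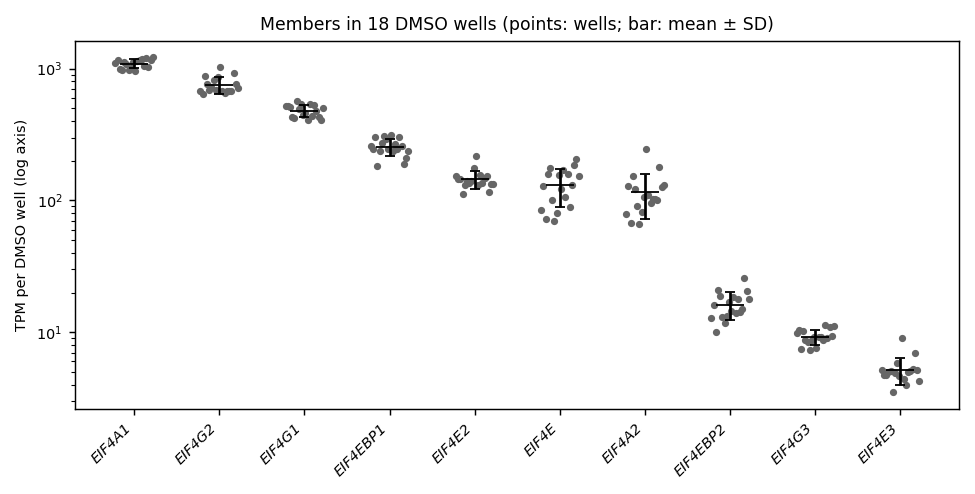
TPM of the 10 genes in each of the 18 DMSO wells, on a log axis, ordered by mean, with points for wells and bars for mean ± SD. EIF4A1, EIF4G2 and EIF4G1 lead, EIF4E2, EIF4E and EIF4A2 overlap, and EIF4EBP2, EIF4G3 and EIF4E3 are lowest.

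Levels of most members in DMSO wells varied along a measure of base composition. A GC slope was computed for each library. It uses the log2 level of each gene relative to the mean of that gene over all libraries. The slope says how much this relative level changes from 1 gene to another when transcript GC content is 10 points higher. Treated libraries enter these means, so the slope can also carry effects of the compounds. Since the slope is built from gene levels in the same libraries, genes low in GC tend to run against it and genes high in GC with it. The share of all genes that follow the slope was not computed, so nothing particular to these 10 genes is read from it. The slope ran from -0.38 to 0.30 over the DMSO wells. EIF4E, whose transcripts are 41.6% GC, followed it with Pearson r = -0.93 and Spearman rho = -0.93 over 18 wells (permutation p = 1e-05 for both, the smallest the permutations can give, and adjusted p = 2.5e-05 over 10 genes). EIF4EBP1, at 60.6% GC, followed it in the opposite direction with r = 0.92 and rho = 0.95 (permutation p = 1e-05 and adjusted p = 2.5e-05 for both). Without the 2 wells farthest from the median slope, r was -0.93 for EIF4E and 0.90 for EIF4EBP1 over 16 wells. Of the 10 genes, EIF4G2 (r = -0.93), EIF4EBP2 (r = -0.92), EIF4A2 (r = -0.87), EIF4E3 (r = -0.66) and EIF4G3 (r = -0.61) also ran against the slope and EIF4G1 (r = 0.82) with it. EIF4E2 (r = -0.15) and EIF4A1 (r = -0.23) did not pass the permutation test, and without the 2 farthest wells Pearson's r of EIF4E3 (-0.48, permutation p = 0.057) and EIF4G3 (-0.49, permutation p = 0.051) did not pass either. Slopes were -0.53 to -0.39 in the 3 wells with 10000 nM homoharringtonine, below every DMSO well, and 0.11 to 0.24 with 10000 nM triptolide, inside the DMSO range. Values from a fit with the slope as a covariate are therefore given where they change a call or move a called value by over 1.5 times.

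**Figure D2:**
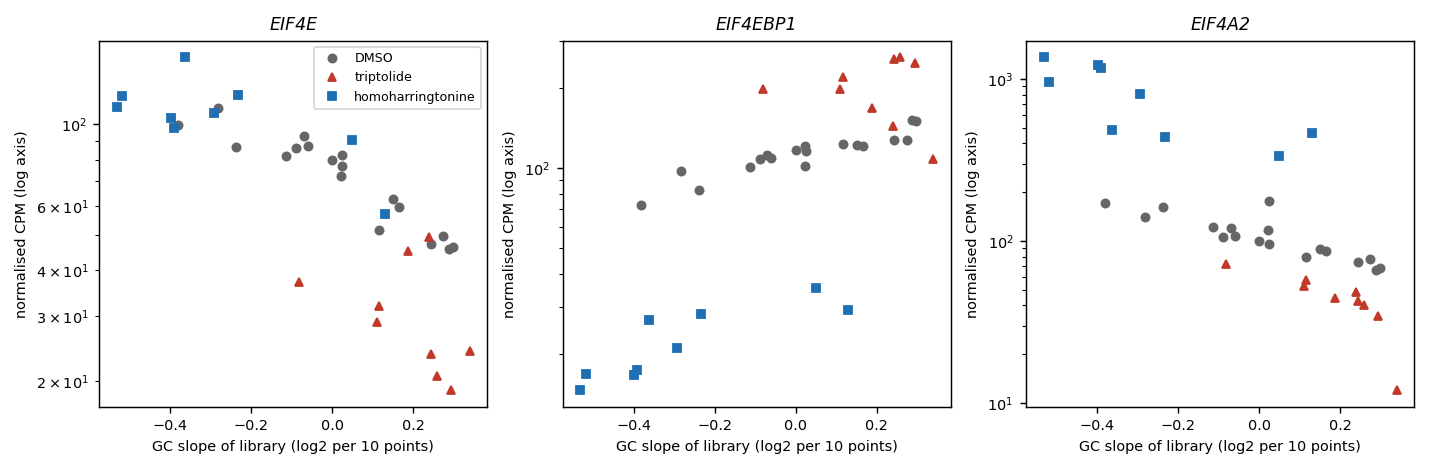
Normalised CPM (log axis) of EIF4E, EIF4EBP1 and EIF4A2 against the GC slope of the library (log2 per 10 percentage points) in DMSO, triptolide and homoharringtonine wells. Within DMSO, EIF4E and EIF4A2 fall and EIF4EBP1 rises along the slope, and the homoharringtonine wells of EIF4EBP1 and EIF4A2 lie off the DMSO band.

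The direction of a change with triptolide depended on the scaling. TMM sets levels relative to the other mRNAs. Scaled to the 13 mitochondrial mRNAs, the median of all genes moved by -1.65, -2.47 and -2.75 on the log2 scale at the 3 rising doses of triptolide relative to the TMM fit, and all 10 members were then lower at each dose. With library sizes only, the shift was -0.34, -0.46 and -0.53. The directions given for triptolide below are therefore relative to other mRNAs, and every rise turns to a fall under the mitochondrial scaling. For homoharringtonine the mitochondrial scaling moved the median by -0.09, -0.07 and -0.27, and library sizes only by -0.23, -0.14 and -0.04.

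Both compounds changed most members. With 10000 nM triptolide, 6 of 10 members rose and 3 fell, where 32.2% of all genes tested rose and 39.7% fell. With 1000 nM, 6 rose and 3 fell (28.8% and 38.6% of all genes), and with 100 nM, 5 rose and 3 fell (24.5% and 32.3%). The counts at 100 nM were 3 to 5 and 1 to 2 when any 1 of the 3 treated wells was left out. With 10000 nM homoharringtonine, 3 rose and 6 fell, against 36.7% and 37.2% of all genes. With 1000 nM homoharringtonine, 1 rose and 6 fell (35.0% and 33.4%), and with 100 nM, 3 rose and 5 fell (31.1% and 32.3%). The median log2 fold change of the members at 10000 nM was 0.52 with triptolide, where that of all genes was -0.17, and -0.74 with homoharringtonine, where that of all genes was -0.05. Under the study's rule, which adds a log2 fold change beyond 1 or -1, 4 members passed with 10000 nM triptolide (46.4% of all genes) and 3 with 10000 nM homoharringtonine (47.0%).

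At matched doses the compounds were compared directly. Triptolide differed from homoharringtonine in 8 of 10 members at 100 nM (65.5% of all genes), 8 at 1000 nM (66.8%) and all 10 at 10000 nM (88.4%). At 10000 nM, 8 of the members were higher with triptolide and 2, EIF4E and EIF4A2, were lower. With the mitochondrial scaling only EIF4EBP1 of those 8 stayed higher with triptolide at that dose, and with library sizes only EIF4E2 turned as well, to -0.34.

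**Figure D3:**
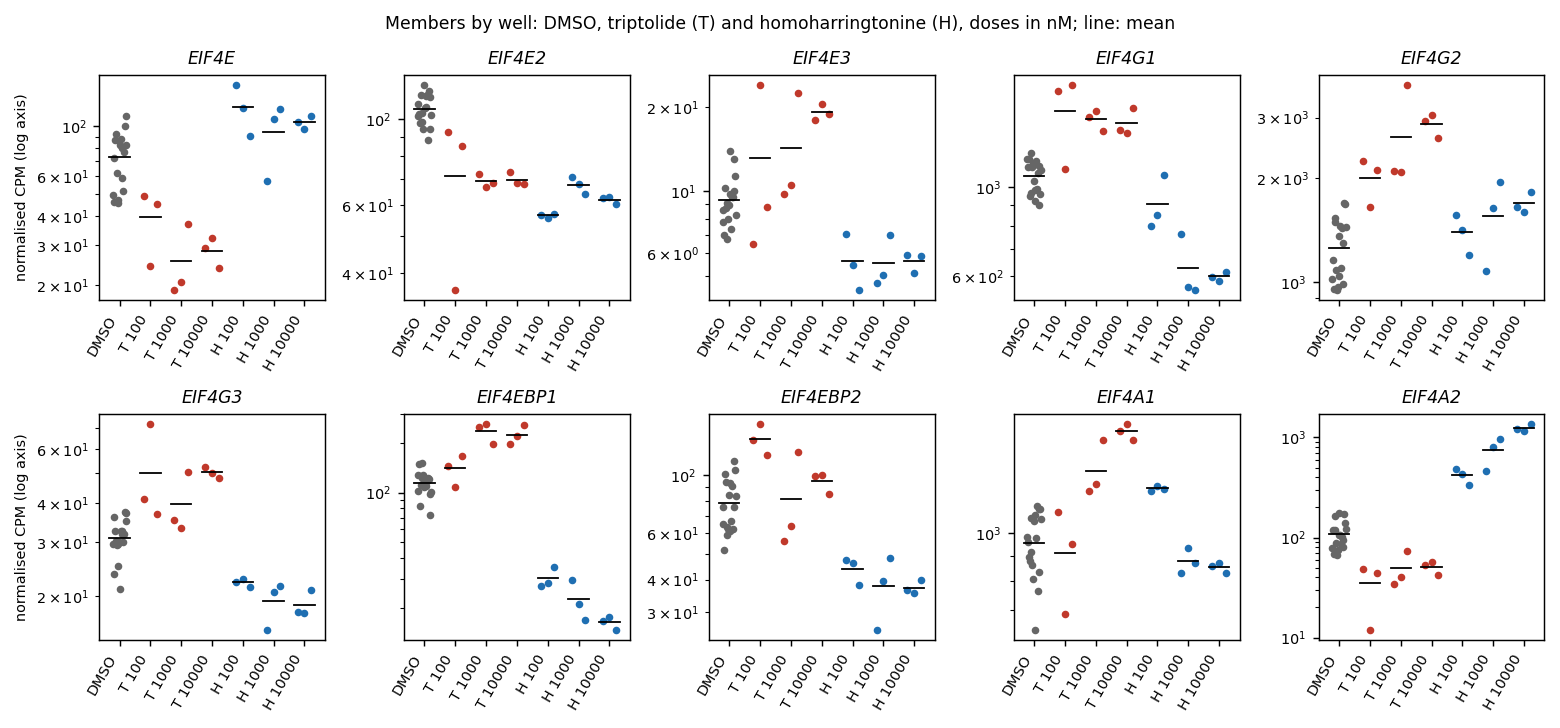
Normalised CPM (log axis, 1 panel per gene) in each well of DMSO, triptolide and homoharringtonine, with the dose in nM on the x axis and a line at the mean. EIF4A2 lies low with triptolide and high with homoharringtonine, EIF4E lies low with triptolide and overlaps DMSO with homoharringtonine, and EIF4EBP1 and EIF4G3 show the opposite arrangement at 10000 nM.

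EIF4E, the cap-binding subunit, fell with triptolide and rose at 100 nM and 10000 nM homoharringtonine, and the second of these rises did not hold with the GC slope in the fit. In DMSO it ran from 45.6 to 111 normalised CPM with a median of 78.4. The triptolide wells held 49.4, 24.1 and 45.3 CPM at 100 nM, 18.9, 20.6 and 37.1 at 1000 nM, and 28.9, 32.1 and 23.7 at 10000 nM. All 6 wells of the upper doses lay below every DMSO well, while 1 of the 3 at 100 nM lay inside the DMSO range. The log2 fold change was -0.65 (SE 0.27, adjusted p = 0.0396) at 100 nM, -1.51 (SE 0.27, adjusted p = 2.1e-05) at 1000 nM and -1.41 (SE 0.25, adjusted p = 1.5e-05) at 10000 nM. The call at 100 nM was lost without the shallow libraries (-0.59), without any 1 of the 3 wells (-0.60 to -0.71) and with the GC slope as covariate (-0.21). At 10000 nM the covariate left the fall at -1.12.

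With homoharringtonine, EIF4E stood at 152, 121 and 90.7 CPM at 100 nM, 57.0, 107 and 119.5 at 1000 nM, and 104, 97.5 and 111 at 10000 nM. Of these, 2 wells at 100 nM, 1 at 1000 nM and 1 at 10000 nM lay above every DMSO well, and the rest lay within the DMSO range. It rose at 100 nM by 0.74 (SE 0.20, adjusted p = 0.00279) and at 10000 nM by 0.48 (SE 0.21, adjusted p = 0.0423) and gave 0.37 at 1000 nM (adjusted p = 0.149). The call at 100 nM was lost without replicate 1 (0.56), and 1000 nM passed without its replicate 1 (0.61). The call at 10000 nM was lost when any 1 of its 3 wells was left out (0.43 to 0.52) and reversed with the GC slope as covariate, to -0.33. With that covariate the 100 nM value was 0.40 and still passed, and the 1000 nM value was -0.09. Since the slopes of the 10000 nM wells lie outside those of DMSO, the compound and the slope cannot be told apart there. Between compounds, EIF4E was lower with triptolide than with homoharringtonine by 1.32 at 100 nM, 1.89 at 1000 nM and 1.81 at 10000 nM (log2, adjusted p = 5.8e-05, 0.00197 and 3.6e-08), and it stayed lower under every scaling run.

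EIF4E2 encodes 4EHP, a cap-binding paralog that does not bind eIF4G and acts in repression of translation. It fell with both compounds, from 87.9 to 122 CPM in DMSO (median 105) to 72.8, 68.3 and 68.1 with 10000 nM triptolide and 62.4, 62.8 and 60.2 with 10000 nM homoharringtonine. Neither group overlapped DMSO. The log2 fold changes there were -0.65 (SE 0.09) and -0.80 (SE 0.09), with adjusted p = 6.1e-07 and 2.6e-08. Homoharringtonine lowered it at 100 nM (-0.89) as well as at the higher doses, and triptolide at 100 nM gave -0.31 (adjusted p = 0.0284), a call lost without replicate 2 (-0.23) or replicate 3 (-0.30).

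EIF4E3, the least abundant cap-binding paralog, took opposite directions at 10000 nM. DMSO wells ran from 6.78 to 14 CPM, with a median of 9.04. With 10000 nM triptolide the wells held 18.1, 20.5 and 19 CPM, all above DMSO, and the gene rose by 1.03 (SE 0.14, adjusted p = 3.5e-07). With 10000 nM homoharringtonine they held 5.92, 5.09 and 5.85, all below DMSO, and it fell by 0.73 on the log2 scale (SE 0.16, adjusted p = 0.00029). With the GC slope as covariate this fall was -1.13. At 1000 nM triptolide the rise of 0.66 rested on replicate 3, whose well held 22.5 CPM against 9.78 and 10.6 in the others, and without it the value was 0.16 and did not pass. At 100 nM triptolide EIF4E3 gave -0.20 and did not pass (adjusted p = 0.454). With 100 nM and 1000 nM homoharringtonine it gave -0.68 and -0.72, and both passed.

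EIF4G1, the main scaffold, also took opposite directions. In DMSO it ran from 902 to 1217 CPM with a median of 1093. Triptolide wells held 1731, 1108 and 1799 CPM at 100 nM, 1498, 1544 and 1384 at 1000 nM, and 1389, 1367 and 1575 at 10000 nM, so that 8 of 9 lay above every DMSO well. The rise was 0.59 (SE 0.11), 0.46 (SE 0.09) and 0.39 (SE 0.09) as the dose increased. With library sizes only it was 0.01 at 1000 nM and -0.15 at 10000 nM. Homoharringtonine wells held 799, 851 and 1070.4 CPM at 100 nM, 762, 565 and 553 at 1000 nM, and 597, 584 and 615 at 10000 nM. The value of -0.22 at 100 nM did not pass (adjusted p = 0.0833), and the gene fell by 0.77 at 1000 nM (SE 0.12) and by 0.86 at 10000 nM on the log2 scale (SE 0.10, adjusted p = 2.4e-08). The 100 nM value was -0.25 without the shallow libraries and -0.36 without replicate 3, and both passed.

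EIF4G3, the less abundant full-length scaffold, took the same directions as EIF4G1 at 10000 nM of both compounds. It held 52.6, 50.3 and 48.4 CPM with 10000 nM triptolide and 17.7, 17.7 and 20.9 with 10000 nM homoharringtonine, against 21.0 to 37.5 in DMSO. The groups did not overlap DMSO in either case. It rose by 0.65 (SE 0.10, adjusted p = 4.9e-06) with triptolide and fell by 0.76 (SE 0.12, adjusted p = 7.4e-06) with homoharringtonine on the log2 scale. With 100 nM homoharringtonine, where EIF4G1 did not pass, EIF4G3 gave -0.48 (adjusted p = 0.00089), and with 1000 nM -0.70 (adjusted p = 3.4e-05). With 100 nM triptolide its rise of 0.41 did not pass without replicate 1 (0.43) or with library sizes only (0.08). With 1000 nM triptolide its rise of 0.35 was 0.14 without replicate 3 and -0.11 with library sizes only, and neither value passed. At 10000 nM the triptolide value was 0.12 with library sizes only and did not pass.

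EIF4G2 encodes DAP5, a relative of eIF4G that lacks the eIF4E-binding part. With triptolide it held 2242, 1651 and 2110.3 CPM at 100 nM, 2099.8, 2087 and 3733 at 1000 nM, and 2938, 3049 and 2611 at 10000 nM, against 948 to 1698 in DMSO (median 1229). It rose by 0.70, 1.05 and 1.14 (SE 0.15, 0.16 and 0.14), the largest rise of the members at the highest dose. With 10000 nM homoharringtonine it held 1653, 1598 and 1828 CPM, and its rise of 0.39 (SE 0.15, adjusted p = 0.0232) was lost without replicate 1 (0.41) or replicate 3 (0.34) and reversed to -0.21 with the GC slope as covariate. In DMSO EIF4G2 ran against the slope (r = -0.93).

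EIF4EBP1, whose mRNA per length exceeded that of EIF4EBP2 in DMSO, showed the largest fall of the members with homoharringtonine. In normalised CPM the DMSO means of EIF4EBP1 and EIF4EBP2 were closer, at 114 and 78.2. DMSO wells ran from 72.9 to 151 CPM with a median of 116. Homoharringtonine wells held 26.9, 28.2 and 35.3 CPM at 100 nM, 29.3, 21.1 and 16.9 at 1000 nM, and 16.7, 17.5 and 14.7 at 10000 nM. All 9 lay below every DMSO well, and below every well of the other 5 compounds. The gene fell by 1.91, 2.35 and 2.84 on the log2 scale (SE 0.19, 0.21 and 0.19, adjusted p = 2.9e-09, 5.1e-10 and 1.5e-12). The covariate for GC slope left -1.64, -2.05 and -2.25. The trend over doses was -0.48 per unit of log10 dose (SE 0.10, adjusted p = 0.00277).

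With triptolide, EIF4EBP1 held 144, 108 and 168 CPM at 100 nM, 249, 261 and 198 at 1000 nM, and 198, 221 and 256 at 10000 nM. The 6 wells of the upper doses lay above every DMSO well. It rose by 0.41 (SE 0.17, adjusted p = 0.0456), 1.04 (SE 0.15, adjusted p = 9.3e-07) and 0.93 (SE 0.14, adjusted p = 3.2e-06). The call at 100 nM did not hold with library sizes only (0.10), with the GC slope as covariate (0.20) or without replicate 1 (0.48) or replicate 3 (0.29). At 10000 nM EIF4EBP1 was higher with triptolide than with homoharringtonine by 3.86 (SE 0.12, adjusted p = 1.6e-10), or 14.5-fold.

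EIF4EBP2, the second 4E-BP, fell with homoharringtonine and differed by dose with triptolide. Homoharringtonine wells held 47.3, 46.1 and 38.1 CPM at 100 nM, 25.8, 39.6 and 48.4 at 1000 nM, and 36.5, 35.5 and 39.8 at 10000 nM, all below the DMSO range of 52.0 to 114. The log2 fold changes were -0.83, -1.06 and -1.11 (SE 0.18, 0.20 and 0.19), and with the GC slope as covariate the last was -1.76. Triptolide wells held 137, 157 and 119 CPM at 100 nM, above every DMSO well, but 56.0, 64.0 and 123 at 1000 nM and 99.1, 100.4 and 84.5 at 10000 nM. The rise at 100 nM was 0.75 (SE 0.19, adjusted p = 0.00153), which did not pass with library sizes only (0.45), and the values of 0.03 and 0.23 at the higher doses did not pass. With the covariate they were 0.21 and 0.44 and both passed.

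EIF4A2, a paralog of the eIF4A helicase, showed the largest change of any member. In DMSO it ran from 66.2 to 175 CPM with a median of 103. Homoharringtonine wells held 485, 436 and 335 CPM at 100 nM, 461, 807 and 954 at 1000 nM, and 1217, 1160.0 and 1357 at 10000 nM. Every one lay above every DMSO well and above every well of the other compounds. The log2 fold changes were 1.98 (SE 0.20, adjusted p = 6.4e-09), 2.78 (SE 0.21, adjusted p = 1.9e-11) and 3.50 (SE 0.19, adjusted p = 3.9e-14), or 3.93-fold, 6.85-fold and 11.3-fold. With the GC slope as covariate they were 1.67, 2.34 and 2.69. The rise grew by 0.75 per unit of log10 dose (SE 0.12, adjusted p = 0.00052). The isoform-weighted transcript length that RSEM printed for EIF4A2 was 1374 to 1473 in the 10000 nM wells. That is the lower part of the DMSO range of 1364 to 1752, whose median was 1566. At 1000 nM the shortest length, 1359, lay just below that range.

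With triptolide, EIF4A2 fell, with 48.7, 12.0 and 44.5 CPM at 100 nM, 34.5, 40.0 and 72.6 at 1000 nM, and 52.8, 57.4 and 42.6 at 10000 nM. The value of 12.0 CPM is 1 read in the library of 70767 counts. The log2 fold changes were -1.25, -1.13 and -1.12 (SE 0.30, 0.28 and 0.26), and -0.78, -0.87 and -0.81 with the GC slope as covariate, all past the threshold. At 10000 nM EIF4A2 was lower with triptolide than with homoharringtonine by 4.54 on the log2 scale (SE 0.12, adjusted p = 6.5e-11), or 23.2-fold.

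EIF4A1, the predominant helicase gene, moved much less. DMSO wells ran from 639.5 to 1134 CPM with a median of 968. With 10000 nM homoharringtonine the wells held 858, 868 and 831 CPM, inside the DMSO range, and the value of -0.19 (SE 0.12, adjusted p = 0.147) did not pass. At 100 nM they held 1216, 1244 and 1224, above every DMSO well, and the gene rose by 0.38 (SE 0.11, adjusted p = 0.00384). This rise was 0.15 with library sizes only and did not pass. With triptolide EIF4A1 held 1602, 1653 and 1539 CPM at 10000 nM and rose by 0.70 (SE 0.11, adjusted p = 5.3e-06), a value of 0.16 with library sizes only.

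Dose trends, fitted to log10 dose in the 9 wells of each compound, passed for 4 members with homoharringtonine (44.3% of all genes) and 1 with triptolide (24.1%). With homoharringtonine these were EIF4A2 and EIF4EBP1, given above, EIF4G1 at -0.33 (SE 0.08, adjusted p = 0.00738) and EIF4A1 at -0.30 (SE 0.06, adjusted p = 0.00277). Without the wells of replicate 2 only that of EIF4A2 passed (0.79), and EIF4EBP1 gave -0.52, EIF4G1 -0.34 and EIF4A1 -0.29. With triptolide it was EIF4A1 at 0.29 (SE 0.07, adjusted p = 0.0139), which did not pass without the wells of replicate 2 (0.23) or 3 (0.30). Without the shallow libraries 5 members passed with triptolide, EIF4E at -0.43, EIF4E2 at -0.24, EIF4E3 at 0.55, EIF4G1 at -0.22 and EIF4A1 at 0.23.

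**Figure D4:**
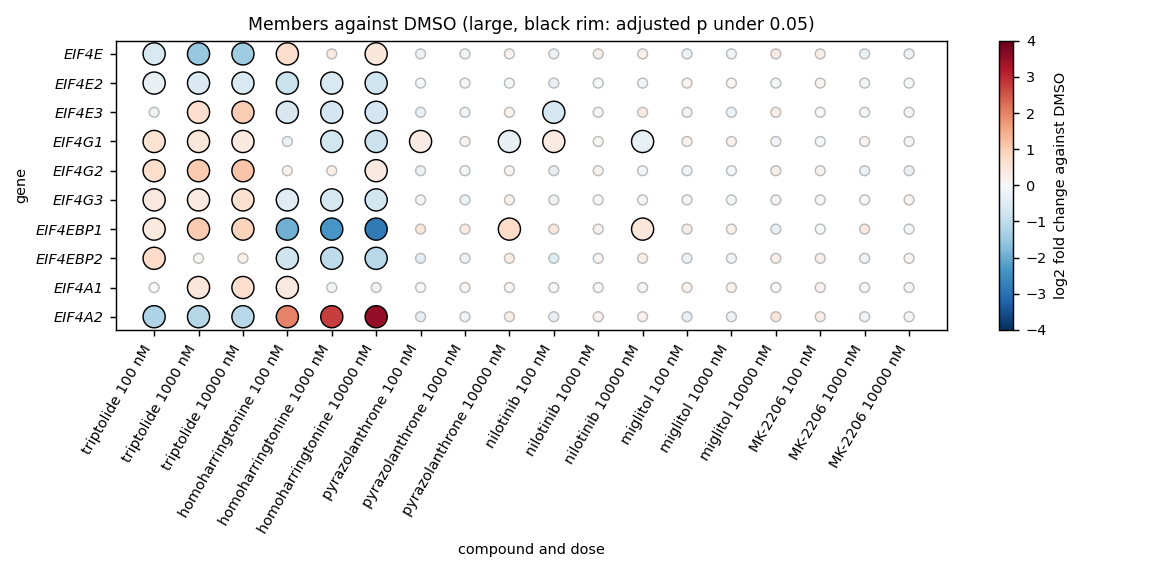
Log2 fold change against 18 DMSO wells (colour) of the 10 genes for 6 compounds at 3 doses, with large rimmed dots for an adjusted p under 0.05. Triptolide and homoharringtonine fill most of their columns, and the other 4 compounds hold 7 such dots.

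Ratios between members within a well do not depend on how libraries are scaled, and 5 ratios were tested over 18 comparisons by an exact two-sided permutation test, whose smallest p with 3 against 18 wells is 0.0015, with Benjamini-Hochberg adjustment over 90 tests. The TPM ratio of EIF4A1 to EIF4A2 was 3.92 to 14.9 in DMSO with a median of 10.6. With 10000 nM triptolide it was 31.0 to 42.2, and with 10000 nM homoharringtonine 0.589 to 0.655, so that EIF4A2 exceeded EIF4A1 per length. EIF4A1 made up 38.7% ± 1.4 (SD, n = 3) of the 2 genes there, 53.9% ± 8.7 at 1000 nM and 74.5% ± 3.3 at 100 nM. The ratio differed from DMSO at all 3 doses of both compounds (adjusted p = 0.00712 each by the exact permutation test). In DMSO, EIF4A2 ran against the GC slope (r = -0.87) and EIF4A1 did not follow it (r = -0.23). What the slope adds to this ratio was not tested.

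The ratio of EIF4EBP1 to EIF4E was 1.02 to 4.44 in DMSO with a median of 1.94. It was 7.68 to 14.8 with 10000 nM triptolide and 0.167 to 0.212 with 10000 nM homoharringtonine, and it differed from DMSO at all doses of both (adjusted p = 0.0308 at 100 nM triptolide and 0.00712 at the others, exact permutation test). This ratio joins a gene that rises and a gene that falls along the GC slope. The ratio of EIF4EBP2 to EIF4E joins 2 genes that both fall along it, with r = -0.92 and -0.93 in DMSO. It was 0.099 to 0.168 in DMSO, 0.329 to 0.452 with 10000 nM triptolide and 0.0384 to 0.0398 with 10000 nM homoharringtonine. The log2 differences from DMSO were 1.92, 1.48 and 1.59 with rising doses of triptolide and -1.58, -1.43 and -1.71 with homoharringtonine, beyond the SD of 0.23 between DMSO wells (adjusted p = 0.00712 each, exact permutation test). No other compound moved this ratio past the threshold at any dose.

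The ratio of EIF4E2 to EIF4E rose at 1000 nM and 10000 nM triptolide by 1.33 and 0.99 and fell at 100 nM and 10000 nM homoharringtonine by 1.55 and 1.38 (log2, adjusted p = 0.0412, 0.0308, 0.00712 and 0.00712, exact permutation test). With wells left out by replicate number, the triptolide calls held only without replicate 3 at 1000 nM and without replicate 2 at 10000 nM. In DMSO, EIF4E ran against the GC slope (r = -0.93) and EIF4E2 did not follow it (r = -0.15). What the slope adds to this ratio was not tested. The ratio of EIF4G1 to EIF4G3 changed in 1 of 18 comparisons, with 10000 nM pyrazolanthrone, by -0.38 (adjusted p = 0.0308, exact permutation test). That call was lost without the wells of replicate 2 or 3. In DMSO, EIF4G1 ran with the GC slope (r = 0.82) and EIF4G3 against it (r = -0.61).

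**Figure D5:**
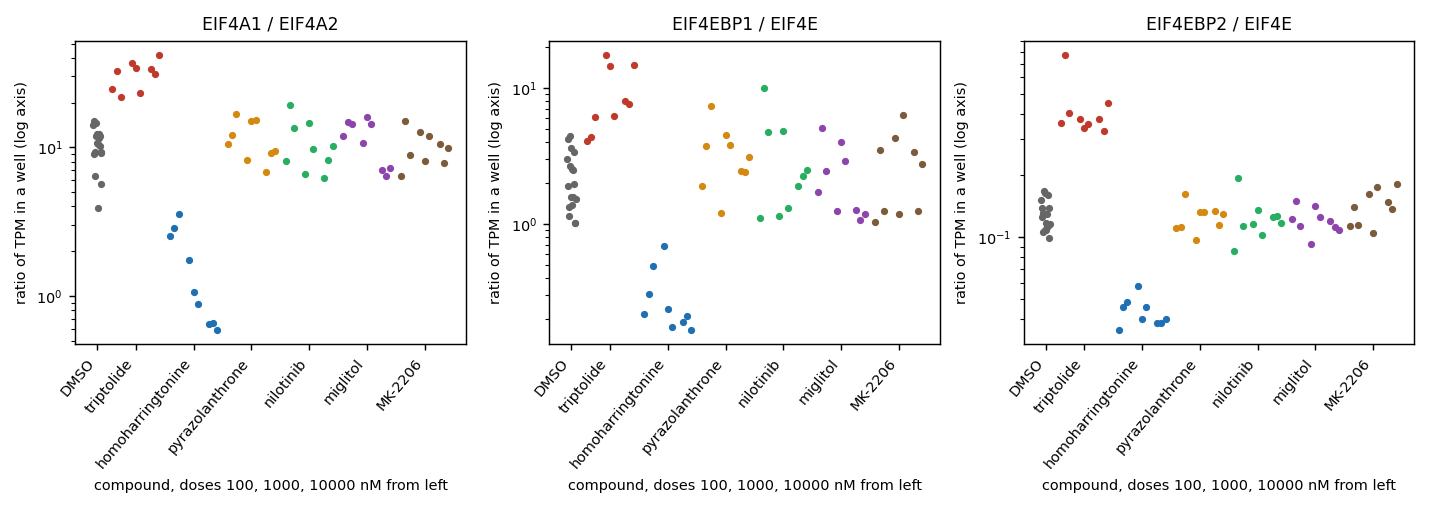
TPM ratios within a well (log axis) for EIF4A1/EIF4A2, EIF4EBP1/EIF4E and EIF4EBP2/EIF4E, with DMSO at the left and 6 compounds in order of dose. Triptolide wells lie above and homoharringtonine wells below the DMSO wells for all 3 ratios, apart from 100 nM triptolide in the second panel, and the other compounds overlap DMSO.

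The other 4 compounds gave 7 calls among the members in all. At 1000 nM, no member passed with pyrazolanthrone or nilotinib in edgeR, with 0 at an unadjusted p under 0.05. Over all doses DESeq2 made 4 calls with pyrazolanthrone and 5 with nilotinib, where a call is 1 member at 1 dose. Of all genes at 10000 nM, DESeq2 called 2148 of 16488 with pyrazolanthrone and 3228 of 19383 with nilotinib. Pyrazolanthrone changed 1, 0 and 2 members at rising doses, where 4.77%, 0% and 7.65% of all genes were called. At 10000 nM EIF4EBP1 held 186, 195 and 209 CPM, all above DMSO, and rose by 0.75 (SE 0.14, adjusted p = 0.00107). EIF4G1 held 829, 884 and 929.8 CPM there, with 2 of the 3 wells below DMSO, and fell by 0.31 on the log2 scale (SE 0.09, adjusted p = 0.0462), whereas at 100 nM it rose by 0.34 (SE 0.09, adjusted p = 0.0377). The slopes of the 10000 nM wells were -0.27 to -0.07 and those of the 100 nM wells 0.01 to 0.35, and with the slope as covariate the EIF4EBP1 rise was 1.01 and the fall of EIF4G1 was -0.19 and did not pass. At 100 nM EIF4EBP1 then passed as well, at 0.31 against 0.51 without the covariate. The call of EIF4G1 at 10000 nM did not hold when any 1 well was left out (-0.26 to -0.36), nor that at 100 nM without replicate 2 (0.36) or 3 (0.25).

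Nilotinib changed 2, 0 and 2 members, where 9.08%, 3.95% and 14.4% of all genes were called. At 10000 nM EIF4EBP1 held 142, 161 and 173 CPM and rose by 0.48 (SE 0.14, adjusted p = 0.0266), and EIF4G1 held 835, 828 and 864 and fell by 0.33 on the log2 scale (SE 0.09, adjusted p = 0.0171). All 3 EIF4G1 wells lay below DMSO, and 2 of 3 EIF4EBP1 wells lay above it. At 100 nM EIF4G1 rose by 0.35 (SE 0.10, adjusted p = 0.0282) and EIF4E3 fell by 0.70 on the log2 scale (SE 0.18, adjusted p = 0.0159). Each of these 4 calls was lost without 1 or more of the wells: EIF4EBP1 gave 0.39 to 0.56 without any 1 well, EIF4G1 at 10000 nM -0.32 without replicate 1 and -0.33 without replicate 2. At 100 nM EIF4G1 gave 0.27 without replicate 2 and 0.33 without replicate 3, and EIF4E3 -0.49 and -0.76. With the GC slope as covariate the calls with nilotinib over 3 doses went from 4 to 8. Calls over all genes rose too, from 2674 to 3915 of 18616 tested at 10000 nM. The 4 gained were EIF4E2 (-0.25) and EIF4EBP2 (-0.29) at 100 nM, EIF4EBP1 (0.24) at 1000 nM and EIF4G2 (-0.28) at 10000 nM, and the 4 others still passed, with EIF4G1 at 0.22 at 100 nM. The slopes of the 100 nM wells ran from -0.14 to 0.50.

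Miglitol changed no member at any dose, and 0%, 0% and 0% of all genes were called by edgeR. At an unadjusted p under 0.05, 0, 0 and 3 members passed, the 3 being EIF4A2 (0.51), EIF4E3 (0.31) and EIF4EBP1 (-0.33) at 10000 nM, and DESeq2 called 0 members and 1, 127 and 1 of all genes. MK-2206, which inhibits the AKT kinase upstream of mTORC1, also changed none, where 0.0648%, 1.52% and 3.15% of all genes were called by edgeR. At an unadjusted p under 0.05, 1 member passed, EIF4EBP1 at 1000 nM (0.35), and DESeq2 called 0 members. With the GC slope as covariate 1 member passed, EIF4G2 at 10000 nM (-0.23). EIF4E held 45.4, 100.6 and 38.7 CPM at 1000 nM MK-2206, with 2 wells below every DMSO well, and 52.4, 81.7 and 52.3 at 10000 nM, inside the DMSO range. EIF4EBP1 held 152, 104 and 177 CPM at 1000 nM, with 2 wells above every DMSO well, and 139, 90.8 and 109 at 10000 nM, inside the DMSO range. The slopes of the 1000 nM wells ran from -0.21 to 0.36. These values describe mRNA only.

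Over the 19 conditions the order of levels separated few neighbours. For EIF4E, the mean ran from 121 CPM ± 30.7 (SD, n = 3) with 100 nM homoharringtonine to 25.5 ± 10.0 with 1000 nM triptolide, and the ranges of every pair of neighbours in this order met. For EIF4EBP1 1 gap separated the 3 homoharringtonine groups, at 30.1, 22.4 and 16.3 CPM, from miglitol at 10000 nM (93.4) and all others. For EIF4A2 the 10000 nM homoharringtonine wells stood clear of the 1000 nM wells, and the 100 nM wells (mean 419 CPM) of the next group, 10000 nM miglitol (157 CPM). For EIF4G1 1 gap separated 1000 nM and 10000 nM homoharringtonine from 10000 nM nilotinib (842 CPM).

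Among the members, mean log2 levels over the 19 conditions ran together most for EIF4G3 and EIF4EBP2 (r = 0.91) and in opposite directions for EIF4G1 and EIF4A2 (r = -0.93) and for EIF4EBP1 and EIF4A2 (r = -0.92). Among 9371 protein-coding genes of at least 10 CPM, the closest to EIF4E were CDV3 (r = 0.98), AHCTF1 (r = 0.98) and PHF14 (r = 0.98), and to EIF4EBP1 RTL8A (r = 0.98), TUBB (r = 0.98) and P3H4 (r = 0.98). EIF4G1 was closest to PPP6R1 (r = 0.99), C9orf78 (r = 0.97) and TOMM22 (r = 0.96), and EIF4A2 to ECD, CDC73 and AKIRIN1 (r = 0.99 each). These are descriptions over 19 condition means, which share libraries, depth and GC slope.

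Lists of related genes are counted at 10000 nM, where 32.2% of all genes rose and 39.7% fell with triptolide and 36.7% rose and 37.2% fell with homoharringtonine. Of 9 partners and cofactors of eIF4F, 3 rose and 4 fell with triptolide, and 4 rose and 2 fell with homoharringtonine, close to these shares. PABPC1, the poly(A)-binding protein that eIF4G holds, rose most with triptolide (1.36, SE 0.14). EIF4EBP3, another 4E-BP, which is scarce here at 1.40 CPM ± 0.68 (SD, n = 18) in DMSO, fell by 3.16 on the log2 scale (SE 0.48) with triptolide and rose by 1.41 (SE 0.28) with homoharringtonine. PDCD4, an inhibitor of eIF4A, fell by 0.60 (SE 0.15) with homoharringtonine. Directions given for triptolide in these gene lists are those of the TMM scaling.

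Of 6 other proteins that bind the cap or eIF4E, 2 rose and 4 fell with triptolide (32.2% and 39.7% of all genes) and 2 rose and 3 fell with homoharringtonine (36.7% and 37.2%). GIGYF2, which works with the EIF4E2 product, fell from 77.1 CPM ± 6.07 to 8.05 ± 1.08 with triptolide (log2 fold change -3.31, SE 0.11). LARP1, which binds the cap of mRNAs for ribosomal proteins, fell from 452 CPM ± 36.8 (SD, n = 18) to 39.6 ± 1.16 (SD, n = 3) with homoharringtonine (-3.55, SE 0.12). CYFIP1 rose with both, by 0.97 (SE 0.06) and 0.61 (SE 0.06). A further list held 7 genes for kinases and kinase complex subunits linked to eIF4E or mTORC1. Of these, 3 rose and 2 fell with triptolide and 1 rose and 4 fell with homoharringtonine. RPTOR, an mTORC1 subunit, fell by 2.12 (SE 0.16) with triptolide, and MKNK2, a kinase of eIF4E, fell by 1.26 (SE 0.15) with homoharringtonine on the log2 scale. RPS6KB2, a ribosomal S6 kinase, rose by 1.22 (SE 0.12) and 0.29 (SE 0.12).

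Of 13 eIF3 subunit genes, 8 rose and 2 fell with 10000 nM triptolide (32.2% and 39.7% of all genes), with EIF3C at 1.47 (SE 0.08) and EIF3A at -1.19 (SE 0.10), and 4 rose and 3 fell with 10000 nM homoharringtonine (36.7% and 37.2%), with EIF3J at 1.74 (SE 0.23) and EIF3F at -0.81 (SE 0.10). Of 15 genes of eIF1, eIF2, eIF2B, eIF5 and eIF6, 4 rose and 8 fell with triptolide and 7 rose and 2 fell with homoharringtonine, beside the same shares of all genes. EIF1B, which is close to the start-codon factor eIF1, fell by 3.61 (SE 0.20) on the log2 scale with triptolide and rose by 1.64 (SE 0.12) with homoharringtonine. In the same list EIF2S3 rose by 0.76 (SE 0.17) with triptolide and EIF2S2 fell by 0.55 (SE 0.13) with homoharringtonine.

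Of 6 genes for eIF2 kinases and phosphatase subunits, 2 rose and 3 fell with 10000 nM triptolide (32.2% and 39.7% of all genes) and 3 rose and 1 fell with 10000 nM homoharringtonine (36.7% and 37.2%). PPP1R15A (GADD34), the stress-induced phosphatase subunit, rose by 4.16 (SE 0.21) with homoharringtonine, from 78.8 CPM ± 41.3 (SD, n = 18) to 1365 ± 22.9 (SD, n = 3). PPP1R15B, its constitutive counterpart, fell by 5.01 (SE 0.11) on the log2 scale with triptolide. EIF2AK4 (GCN2) rose by 0.89 (SE 0.14) with triptolide and fell by 1.04 (SE 0.16) with homoharringtonine. Of 9 elongation and termination factor genes, 6 rose and 1 fell with triptolide and 3 rose and 3 fell with homoharringtonine. EEF2K, the kinase of elongation factor eEF2, fell with both, to -1.62 (SE 0.10) and -2.71 (SE 0.10) on the log2 scale, while EEF1B2 rose by 1.27 (SE 0.12) with triptolide and GSPT1 by 0.55 (SE 0.22) with homoharringtonine.

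Reads of members could be shared with near copies. In the 69 wells of at least 10 mil counts, 5 pseudogenes of EIF4E held a median of 0.98% and at most 2.30% of the reads of EIF4E and its copies, and 14 genes related to EIF4A1, SENP3-EIF4A1 among them, held a median of 0.41% and at most 0.92%. For EIF4A2 5 related genes held at most 0.29%.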

How the data were processed

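Poly(A) RNA of 72 wells was sequenced as strand-specific TruSeq libraries. The authors deposited expected counts and TPM per gene from RSEM, and FPKM that were not used here, on build GRCh38 per the labels. The versions, the annotation and the strand setting are not given in the sources used here. HTSeq and DESeq2 are also named in the submitters' processing notes. For the second of the 3 doses the labels say 1000 nM, whereas the study's methods text says 1 nM. The labels were followed, so values at 1000 nM, and the dose trends, rest on them.

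Expected counts were rounded, and genes were kept by filterByExpr (minimum count of 10). The 3 wells of a treatment were tested against the 18 of DMSO by edgeR 4.0.16 (R 4.3.3; TMM, glmQLFit, glmQLFTest, Benjamini-Hochberg over all genes tested). The SE is the log2 fold change divided by the root of F. Ratios of TPM were tested by exact permutation (scipy 1.17.1, Python 3.11.15). The steps were tested on simulated data. With 200 of 14407 genes changed, edgeR recovered 200 with 8 false calls. The simulated effects were large, with a median absolute size of 2.04 on the log2 scale. How well smaller effects are found, or effects on most genes at once, cannot be judged from this simulation.

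The members and the lists of related genes were chosen with earlier results of these data known, although the rule for the members names genes and uses no value. Every member was described, and from each related list the largest rise and fall past the threshold at 10000 nM were named. Gene positions came from GENCODE 44, which held 56104 of 60371 gene IDs. Alternatives were DESeq2 1.42.0, other scalings and filters, left-out wells, a replicate block, 1 fit over all wells and a GC slope covariate.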

Additional observations from a re-analysis of the deposited data

How the results depend on the processing

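Of the 50 calls among 60 values of the members with triptolide and homoharringtonine, 48 remained with DESeq2, 38 with library sizes only, 30 with mitochondrial scaling, 48 without the shallow libraries and 46 with the GC slope as covariate. The cause of a difference was not tested. Depth limits the values in the library of 70767 counts, where a member had 1 to 137 counts.

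Counts of members moved as follows. With 100 nM triptolide, the 5 that rose were 3 with DESeq2, 2 with library sizes only, 0 with mitochondrial scaling, 3 with no filter and 0 with 10 counts in every well (3 to 5 with wells left out). The 3 that fell were 10 with mitochondrial scaling and 1 without shallow libraries (1 to 2 with wells left out). With 10 counts in every well 1 member fell, but none of these 3, EIF4E, EIF4E2 and EIF4A2, was tested. In triptolide 100 nM replicate 2 they stood at 24.1, 36.1 and 12.0 CPM, where 12.0 CPM is 1 read. EIF4G3 (72.3 CPM) and EIF4EBP1 (108 CPM), which rose, were also under 10 counts there and not tested. With 1000 nM, the 6 that rose were 2 with library sizes only, 0 with mitochondrial scaling and 3 with the replicate block (4 to 6 with wells left out), and the 3 that fell were 10 with mitochondrial scaling. With 10000 nM, the 6 that rose were 3 with library sizes only and 0 with mitochondrial scaling, and the 3 that fell were 10 with mitochondrial scaling. The 1 that rose with 1000 nM homoharringtonine was 2 with the replicate block (1 to 3 with wells left out), and the 3 that rose with 10000 nM were 1 with mitochondrial scaling and 1 with the GC slope covariate (1 to 2 with wells left out). Over 3 doses, the 3 calls of pyrazolanthrone were 0 with mitochondrial scaling, 1 with no filter, 6 with the replicate block and 1 with 1 fit over all wells (1 to 3 with wells left out), and the 4 of nilotinib were 7 with mitochondrial scaling, 2 with no filter and 8 with the GC slope covariate (0 to 7 with wells left out). Calls over all genes moved as well. The replicate block called 5882 of 17660 genes at 10000 nM pyrazolanthrone, against 1415 of 18494 in the main fit. At 100 nM it called 10 of 17348, against 878 of 18410. At 10000 nM nilotinib, mitochondrial scaling called 9940 of 18616 genes and the GC slope covariate 3915, against 2674. The 0 of miglitol was 7 with the replicate block and the 0 of MK-2206 was 1 with the GC slope covariate. The 8 that differed between triptolide and homoharringtonine at 100 nM were 2 with 10 counts in every well. There EIF4E, EIF4E2, EIF4G3, EIF4EBP1 and EIF4A2 were left out and not tested. The 1 triptolide dose trend was 3 with DESeq2, 4 with library sizes only, 8 with mitochondrial scaling, 2 with no filter, 2 with 10 counts in every well and 5 without shallow libraries (0 to 1 with wells left out), and the 4 homoharringtonine trends were 1 to 4 with wells left out.

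With the wells of 1 replicate number left out, the changed ratios of 18 were 6 to 7 for EIF4A1/EIF4A2, 5 to 6 for EIF4EBP1/EIF4E, 6 for EIF4EBP2/EIF4E, 3 for EIF4E2/EIF4E and 0 to 1 for EIF4G1/EIF4G3. The replicate block gave 0 for each ratio, since 3 pairs cannot give a p under 0.25. Same-numbered wells did not deviate together (mean r = -0.068 over 52 pairs, 12 of 52 treated wells correlating best with their own number), so the numbers were not taken to pair wells.

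Values that reversed under mitochondrial scaling were, with 100 nM triptolide, EIF4G1 (-0.99), EIF4G2 (-0.77), EIF4G3 (-1.14), EIF4EBP1 (-1.28) and EIF4EBP2 (-0.73). With 1000 nM they were EIF4E3 (-1.85), EIF4G1 (-1.99), EIF4G2 (-1.40), EIF4G3 (-2.11), EIF4EBP1 (-1.43), EIF4EBP2 (-2.42) and EIF4A1 (-1.99), and with 10000 nM EIF4E3 (-1.72), EIF4G1 (-2.41), EIF4G2 (-1.59), EIF4G3 (-2.10), EIF4EBP1 (-1.90), EIF4EBP2 (-2.50) and EIF4A1 (-2.08). Between triptolide and homoharringtonine they were EIF4E2 (-0.98), EIF4E3 (-1.09), EIF4G1 (-0.66), EIF4G2 (-0.88) and EIF4G3 (-0.68) at 100 nM. At 1000 nM they were EIF4E2 (-2.36), EIF4E3 (-1.04), EIF4G1 (-1.19), EIF4G2 (-1.59), EIF4G3 (-1.32), EIF4EBP2 (-1.26) and EIF4A1 (-1.78), and at 10000 nM EIF4E2 (-2.34), EIF4E3 (-0.75), EIF4G1 (-1.24), EIF4G2 (-1.76), EIF4G3 (-1.08), EIF4EBP2 (-1.17) and EIF4A1 (-1.61). The triptolide trends of EIF4G2 (-0.41), EIF4G3 (-0.44), EIF4A1 (-0.26) and EIF4A2 (-0.46) and EIF4EBP1 with 10000 nM nilotinib (-0.28) also reversed. With 10 counts in every well, EIF4G1 with 100 nM triptolide (-0.060) and EIF4G2 between the compounds at 100 nM (-0.15) reversed. With library sizes only, EIF4G3 with 1000 nM triptolide (-0.11), EIF4G1 with 10000 nM triptolide (-0.15) and EIF4E2 between the compounds at 10000 nM (-0.34) reversed. The replicate block reversed EIF4EBP1 with 100 nM triptolide (-0.018), and the GC slope covariate reversed EIF4E (-0.33) and EIF4G2 (-0.21) with 10000 nM homoharringtonine.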
